A study of Mus musculus with 5 samples.

Results

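The genes described here are 9 regulators of T cell memory and effector fate, taken by symbol from the 31053 genes of the deposited matrices: Tcf7, Lef1, Bach2, Tbx21, Eomes, Id2, Id3, Prdm1 and Ccr7. They were taken by name, with earlier results of these data known. Ccr7 encodes a chemokine receptor and is the only 1 of the 9 that is not a transcriptional regulator. Each was followed in 3 sets of cell barcodes from digested mouse hearts: barcodes with CD3 transcripts, natural killer (NK) barcodes and B barcodes.

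TCF-1 (from Tcf7) and LEF-1 are related DNA-binding factors of naive and memory T cells, BACH2 is a repressor that restrains effector genes, and CCR7 guides naive and central memory cells to lymphoid tissue. T-bet (from Tbx21), EOMES and BLIMP-1 (from Prdm1) act in effector T cells, and T-bet and EOMES also in NK cells. ID2 and ID3 do not bind DNA but hold E proteins, the partners that bind E-box motifs, away from it, and ID2 is known for effector and innate lymphoid cells, ID3 for memory precursors.

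By the protocols all mice lacked Pdcd1, the gene of the inhibitory receptor PD-1. The genotype labels of 3 libraries carry another Pdcd number and the sort labels of 4 another DRAQ number, and these were read here as Pdcd1 and DRAQ5, the names in the protocols. Mice of genotype Ctla4+/+Pdcd1-/- (4 mice) gave 2 control libraries, replicates 1 and 2. Mice of genotype Ctla4+/-Pdcd1-/- (10 mice), with 1 intact copy of Ctla4, which encodes another inhibitory receptor of T cells, gave 3 disease libraries, replicates 3, 4 and 5. Hearts were pooled and which mice went into which library is not given in the labels, so the libraries are the replicates, and the p-values measure the spread between libraries, which may be partly technical. Live nucleated cells (DRAQ5+DAPI-) were sorted and sequenced with the 10x Genomics 5-prime chemistry, which counts transcripts as unique molecular identifiers (UMIs).

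The deposited counts summed to between 24991704 and 55053988 UMIs per library, and 37138 barcodes were kept, with median depths of 3336.5 to 4540 UMIs. CD3 barcodes, with at least 2 UMIs over Cd3d, Cd3e and Cd3g, numbered 660 and 102 in the 2 control libraries against 152, 2669 and 638 in the 3 disease libraries. For NK barcodes these numbers were 20 and 20 against 9, 51 and 19, and for B barcodes 117 and 275 against 153, 372 and 199. The 2 targeted genes were still detected in CD3 barcodes, Pdcd1 at 104 to 917 CPM (UMIs scaled to a library sum of 1000000) and Ctla4 at 66.8 to 563 CPM with overlapping groups, and since the counts are per gene and the deleted parts are not given, they check no label. NK markers summed to 73.4 to 123 CPM in CD3 barcodes and to 1507 to 3098 CPM in NK barcodes, where all 3 CD3 genes were at 0, as the gate requires, while Trac stood at 49.5 to 66.6 CPM. B markers summed to 6312 to 8244 CPM in B barcodes and to 13.8 to 72.3 CPM in CD3 barcodes. Between 16.7% and 29.4% of the CD3 barcodes of a library also held at least 2 UMIs of markers of other lineages. Pairs of libraries shared 49 to 98 barcodes, and 0 to 3 of these were CD3 barcodes in both.

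The sequences upstream of these genes are shown for members that changed with Tcf7 among CD3 barcodes, 2 that rose and 2 that fell. RefSeq windows from 250 bases before to 50 bases after the most upstream listed start, on build GRCm38.p6, matched 8 of the 9 members, and Ccr7 had no entry. Searches were made on both strands for 3 motifs: the E-box CANNTG, found in 72.2% of 27025 promoter windows of this length, the TCF/LEF core CTTTGA, found in 16.2%, and the T-box half-site AGGTGTGA, found in 1.28%. Capitals mark the E-box in Lef1, Id2 and Prdm1 and the TCF/LEF core, read from the opposite strand, in Bach2.
Lef1, chr3:131110047-131110346, plus strand: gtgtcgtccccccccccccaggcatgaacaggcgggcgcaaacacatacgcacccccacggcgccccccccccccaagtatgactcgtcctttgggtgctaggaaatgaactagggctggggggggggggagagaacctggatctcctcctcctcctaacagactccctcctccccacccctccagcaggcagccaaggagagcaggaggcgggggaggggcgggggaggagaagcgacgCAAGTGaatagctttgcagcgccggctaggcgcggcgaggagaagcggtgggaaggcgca
Bach2, chr4:32417185-32417484, plus strand: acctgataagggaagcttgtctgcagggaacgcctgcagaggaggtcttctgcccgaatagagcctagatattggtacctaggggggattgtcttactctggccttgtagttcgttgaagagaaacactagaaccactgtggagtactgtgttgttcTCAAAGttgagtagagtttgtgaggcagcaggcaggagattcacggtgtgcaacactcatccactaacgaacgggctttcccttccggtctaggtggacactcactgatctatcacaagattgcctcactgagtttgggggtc
Id2, chr12:25096043-25096342, minus strand: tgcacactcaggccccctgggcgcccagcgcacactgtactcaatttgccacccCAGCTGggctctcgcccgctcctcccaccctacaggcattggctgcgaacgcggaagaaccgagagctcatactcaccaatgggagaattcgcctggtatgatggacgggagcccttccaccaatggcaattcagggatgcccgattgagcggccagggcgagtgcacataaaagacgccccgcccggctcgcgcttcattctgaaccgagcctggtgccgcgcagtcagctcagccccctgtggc
Prdm1, chr10:44458699-44458998, minus strand: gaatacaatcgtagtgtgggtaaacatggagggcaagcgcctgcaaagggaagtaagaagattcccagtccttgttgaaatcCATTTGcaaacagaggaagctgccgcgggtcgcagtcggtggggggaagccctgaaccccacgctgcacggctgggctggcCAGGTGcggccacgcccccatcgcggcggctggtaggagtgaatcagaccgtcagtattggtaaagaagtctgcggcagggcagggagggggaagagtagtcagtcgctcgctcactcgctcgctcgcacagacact
Lef1 and Id2 hold 1 E-box each and Prdm1 holds 2, while the Bach2 window holds none. The Bach2 window is the only 1 of the 8 with the TCF/LEF core, and the T-box half-site is in none of them. A match of letters is not a measured binding site.

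Levels were compared for each gene between barcode sets of the same library, as sums of raw UMIs per library, and never between genes, whose lengths differ. Throughout, values stand in the order control replicates 1 and 2, then disease replicates 3, 4 and 5. In such sums, fewer cells of a type and less RNA per cell cannot be told apart. A gene is said to have risen or fallen where edgeR's quasi-likelihood test gave a Benjamini-Hochberg adjusted p under 0.05 over all genes tested, and fold changes are given with their standard error (SE).

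The 9 genes divided the lymphocyte lineages. Tcf7, Lef1, Tbx21, Eomes, Id2 and Prdm1 were higher in CD3 than in B barcodes, and Bach2, Id3 and Ccr7 were lower, so that 9 of 9 members passed the test with 5 libraries a side. Of all 7632 genes tested in that comparison, 42.2% passed, 20.8% higher and 21.4% lower. Against NK barcodes, Tbx21 fell and Ccr7 rose in CD3 barcodes, 2 of the 7 members with enough UMIs to test, where 5.32% of all genes passed, 3.45% higher and 1.87% lower.

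Tcf7 stood at 19.4, 165, 128, 26.1 and 27.8 CPM in CD3 barcodes. Its level was highest in control replicate 2 and disease replicate 3 and lowest in control replicate 1, so both groups spanned a wide range. In B barcodes Tcf7 was at 0 in 3 libraries and rested on 4 UMIs in all. The log2 difference between CD3 and B barcodes was 5.58 (SE 0.58, adjusted p 4.9e-06), higher in 5 of 5 libraries. NK barcodes held 1, 1, 0, 5 and 1 UMIs of Tcf7, too few for the test.

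Lef1 followed the same order of libraries, at 23.5, 288, 120, 37.9 and 41.0 CPM in CD3 barcodes. Control replicate 2 was again the highest and control replicate 1 the lowest. B barcodes held 5.19 to 13.2 CPM of Lef1, and CD3 barcodes were higher by 3.19 on the log2 scale (SE 0.48, adjusted p 0.000131, 5 of 5 libraries). In NK barcodes Lef1 ranged from 0 to 66.6 CPM, on 9 UMIs. The difference between CD3 and NK barcodes over the 3 libraries with at least 20 NK barcodes (control replicates 1 and 2 and disease replicate 4) was 2.21 (SE 0.70, adjusted p 0.121) and did not pass. With all 5 libraries, an alternative chosen after seeing the data, the Lef1 difference was 2.19 with an adjusted p of 0.002, and it also passed without the filter on low counts (2.34, adjusted p 0.000598) and at a mitochondrial limit of 25% (2.33, adjusted p 0.0226).

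Bach2 was a B lineage gene here. It stood at 101, 160, 141, 173 and 125 CPM in B barcodes and at 9.56, 54.3, 33.9, 17.1 and 12.6 CPM in CD3 barcodes. Every B value of Bach2 was above every CD3 value, and the difference was -3.13 (SE 0.29, adjusted p 1.86e-06, 5 of 5 libraries). NK barcodes held 0 to 30.9 CPM of Bach2, and CD3 and NK barcodes differed by 0.18 (SE 0.70, adjusted p 0.94).

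Of the 3 sets, Ccr7 was highest in B barcodes, at 1044, 905, 988, 1213 and 1148 CPM. In CD3 barcodes it stood at 85.0, 349, 145, 131 and 98.6 CPM, highest in control replicate 2 and lowest in control replicate 1. The CD3 level was below the B level in 5 of 5 libraries, by -3.21 on the log2 scale (SE 0.32, adjusted p 2.98e-06). No Ccr7 UMI was found among 452543 UMIs of NK barcodes. Against a floor of 3 UMIs over those barcodes, Ccr7 was at least 24.4-fold higher in CD3 barcodes (adjusted p 0.000481) and at least 160-fold higher in B barcodes (adjusted p 1.29e-16). These folds use means over all 5 libraries, while the tests took the 3 with at least 20 NK barcodes.

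Tbx21 was an NK and CD3 gene. It stood at 489, 564, 266, 149 and 231 CPM in NK barcodes and at 201, 71.0, 74.8, 60.7 and 101 CPM in CD3 barcodes. NK barcodes were the higher of the 2 sets in every library. The CD3 level was lower by -1.61 on the log2 scale over 3 libraries (SE 0.28, adjusted p 0.00726). B barcodes held 0 to 6.60 CPM of Tbx21, on 8 UMIs, so that CD3 barcodes exceeded them by 4.85 (SE 0.35, adjusted p 1.48e-07, 5 of 5 libraries) and NK barcodes by 7.13 (SE 0.41, adjusted p 1.17e-16, 3 of 3 libraries).

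Eomes, the second T-box factor, stood at 9.98, 282, 266, 82.3 and 82.5 CPM in NK barcodes and at 47.3, 12.5, 38.1, 35.2 and 38.3 CPM in CD3 barcodes. In control replicate 1 the NK value rested on 1 UMI and was the only 1 below the CD3 value. The 2 sets differed by -1.39 over 3 libraries (SE 0.69, adjusted p 0.388), which did not pass, and by -1.45 with all 5 libraries (adjusted p 0.0135) or -1.54 at a mitochondrial limit of 25% (adjusted p 0.0449). No Eomes UMI was found among 3089376 UMIs of B barcodes, which made CD3 barcodes at least 35.3-fold higher (adjusted p 2.12e-05) and NK barcodes at least 149-fold higher (adjusted p 1.81e-09). The fold of NK barcodes uses their mean over all 5 libraries, while its test took 3 libraries. DESeq2 gave an adjusted p of 0.0729 for Eomes in NK against B barcodes.

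Id2 stood at 643, 177, 440, 822 and 858 CPM in CD3 barcodes, lowest in control replicate 2. NK barcodes overlapped with this range, at 479, 564, 1099, 525 and 346 CPM, and the CD3 and NK levels of Id2 differed by 0.06 (SE 0.34, adjusted p 0.959). B barcodes held only 10.4 to 46.2 CPM. CD3 barcodes exceeded them by 3.94 (SE 0.20, adjusted p 4.78e-09) and NK barcodes by 4.09 (SE 0.27, adjusted p 7.46e-15), in every library compared.

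Id3, the other inhibitor of E proteins, had the opposite order. B barcodes held 175, 192, 227, 34.3 and 242 CPM of Id3, CD3 barcodes 81.2, 152, 185, 19.9 and 102.5 CPM, and NK barcodes 10.3 to 66.6 CPM on 13 UMIs. Disease replicate 4 was the lowest library in all 3 sets. The CD3 level was below the B level by -1.02 (SE 0.19, adjusted p 0.000736, 5 of 5 libraries), by -2.85 (adjusted p 1.01e-07) when barcodes with markers of other lineages were left out and by -0.56 (adjusted p 0.00411) when doublets were kept, and the NK level by -2.27 (SE 0.41, adjusted p 3.55e-05, 3 of 3 libraries). CD3 and NK barcodes differed by 1.5 (SE 0.48, adjusted p 0.123), by 1.67 with all 5 libraries (adjusted p 0.00187), by 1.67 without the filter on low counts (adjusted p 0.0304) and by 1.98 with doublets kept (adjusted p 0.0184).

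Prdm1 was low in all 3 sets. CD3 barcodes held 25.6, 4.18, 8.47, 24.8 and 20.9 CPM of Prdm1 and B barcodes 5.07, 6.49, 6.60, 1.11 and 5.29 CPM. Control replicate 2 was the only library in which the B value was the higher. The difference of 1.61 (SE 0.48, adjusted p 0.0152, 4 of 5 libraries) did not pass without control replicate 1 (adjusted p 0.0608), without disease replicate 4 (0.125) or in DESeq2 (0.114). NK barcodes held 6 UMIs of Prdm1.

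In NK against B barcodes, 6 members could be tested and 6 passed, 3 higher and 3 lower, where 28.8% of all genes passed. Beyond those given above, Bach2 was lower in NK barcodes by -2.95 (SE 0.42, adjusted p 6.22e-07).

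**Figure D1:**
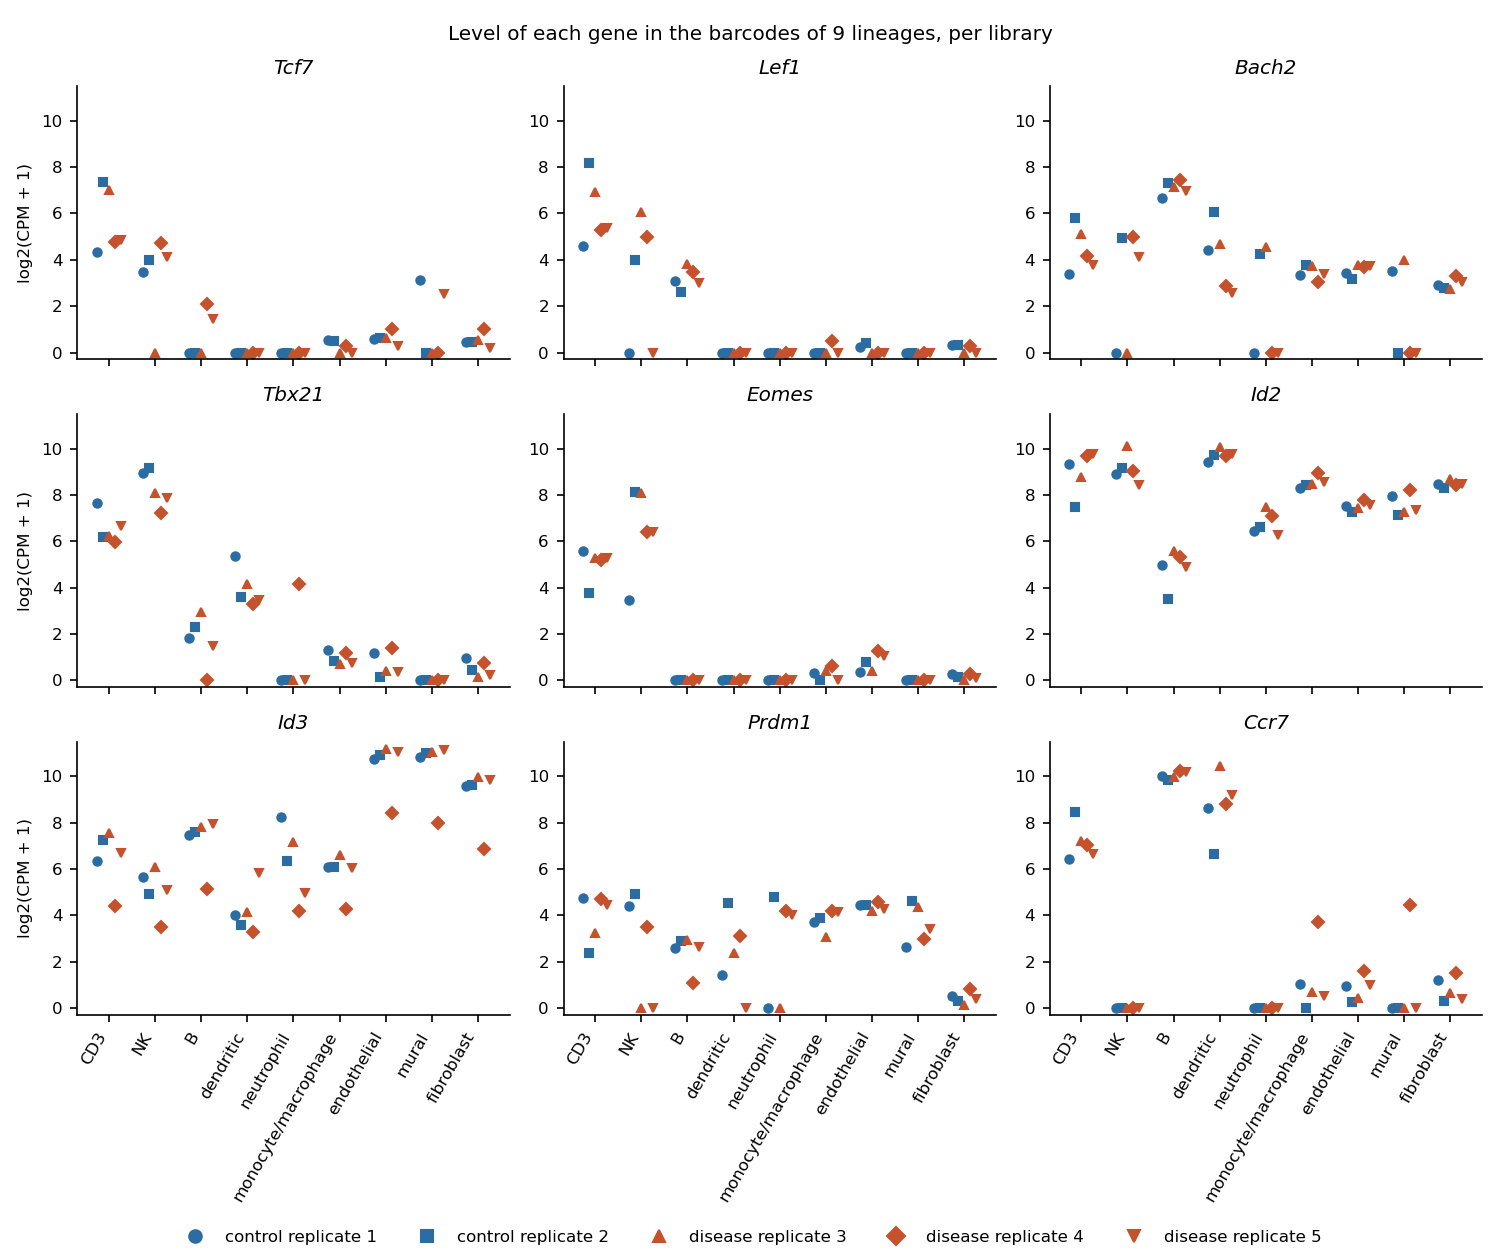
Level of each of the 9 genes as log2(CPM + 1) on the vertical axis, in the barcodes of 9 lineages on the horizontal axis; each point is a library, in blue for control and orange for disease. Bach2 sits highest in B barcodes, Ccr7 has its highest mean there but its highest single point in dendritic barcodes, Tbx21 and Eomes are highest in NK and CD3 barcodes, Id2 is lowest in B barcodes, and Id3 reaches its highest values in mural and endothelial barcodes.

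Across 6 further lineages of the same hearts, gated by their own markers, 3 kinds of pattern appeared. Tcf7, Lef1, Tbx21 and Eomes were low outside the lymphocytes: the mean of Eomes fell from 34.3 CPM in CD3 barcodes to 0.779 CPM in endothelial barcodes, the next lineage, with no overlap of the libraries' ranges, and Tbx21 from 102 to 17.4 CPM in dendritic barcodes, also without overlap. Ccr7 was shared by B (1060 CPM), dendritic (582) and CD3 barcodes (162), each range overlapping with the next, and by no other lineage above a mean of 4.16 CPM. Bach2 in B barcodes, with a mean of 140 CPM, lay above every other lineage without overlap, and CD3 (25.5) and dendritic barcodes (24.6) came next with overlapping ranges.

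The 2 inhibitor genes and Prdm1 were not restricted to lymphocytes. Id2 was highest on average in dendritic barcodes (853 CPM), followed by NK (603), CD3 (588), monocyte and macrophage (377) and fibroblast barcodes (355) with overlapping ranges, and lowest in B barcodes (30.8), below neutrophil barcodes (114) without overlap. The mean of Id3 was 1702 CPM in mural, 1677 in endothelial and 713 in fibroblast barcodes, against 108 in CD3 barcodes. Prdm1 had similar means in endothelial (19.9 CPM), CD3 (16.8) and monocyte and macrophage barcodes (13.4), with overlapping ranges, and was lowest in fibroblast barcodes (0.370), below B barcodes (4.91) without overlap.

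Disease replicate 4 stood apart in Id3. Its level was below those of all 4 other libraries in 9 of 9 lineages. In endothelial barcodes it was 344 CPM against 1694 to 2314 CPM in the others, in mural barcodes 250 against 1824 to 2217 CPM, and in fibroblast barcodes 115 against 762 to 990 CPM. The median of the other libraries was 5.87, 8.45 and 7.36 times its level in these 3 lineages, and 6.41 times in CD3 barcodes. Id2 in disease replicate 4 lay within or above the range of the other libraries in 9 of 9 lineages, while Id1, of the same family, was below all 4 other libraries in 6 of 9 lineages, CD3 and B among them. Among 2984 genes compared in 5 lineages, 67 were under 50% of every other library in disease replicate 4, Id3 being the only member, against 0 or 1 in each other library. This contrast was chosen after the values were seen, and its part in the genotype comparisons of Id3 was not tested beyond leaving the library out.

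**Figure D2:**
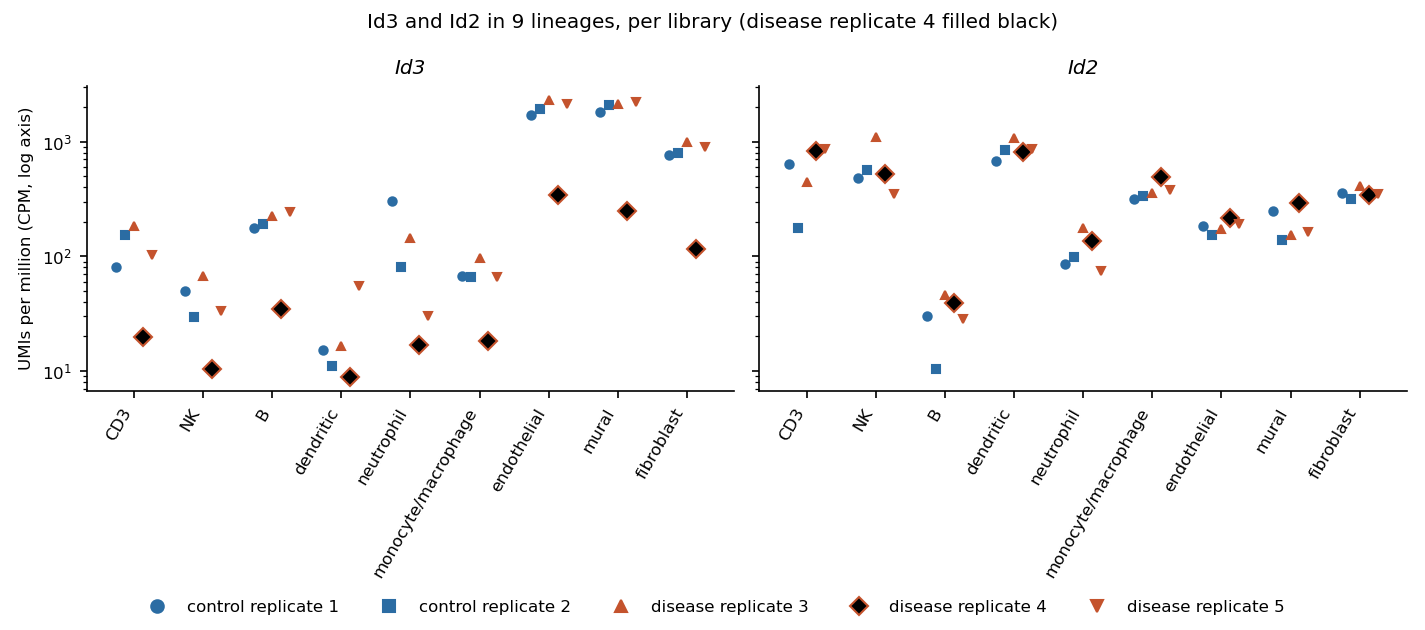
Id3 (left) and Id2 (right) in CPM on a log axis in 9 lineages, each point a library, with disease replicate 4 filled in black. The black point is the lowest for Id3 in every lineage, such as 19.9 CPM in CD3 and 344 CPM in endothelial barcodes, and lies among or above the others for Id2.

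The genotype comparison asked whether losing 1 copy of Ctla4 goes with another balance of memory and effector regulators in the T cells of the heart. None of the 9 members passed the test in CD3 barcodes, with adjusted p-values from 0.482 to 0.97 and none at an unadjusted p under 0.05, where 4.87% of 10680 genes passed, 4.86% lower and 0.00936% higher in disease. DESeq2 also called none of the members. The share of all genes depends on single libraries: 1 gene passed without disease replicate 5 and 153 without disease replicate 4. The groups overlapped for all 9, while they were separate for 31.4% of all genes tested. The fold changes were -0.53 for Tcf7 (SE 1.07), -1.19 for Lef1 (SE 1.01), -0.44 for Bach2 (SE 0.82) and -0.76 for Ccr7 (SE 0.57), with Tbx21 at -0.81 (SE 0.44), Eomes at 0.16 (SE 0.45), Id2 at 0.77 (SE 0.52), Id3 at -0.14 (SE 0.85) and Prdm1 at 0.09 (SE 0.58). The SEs of Tcf7 and Lef1 were above 1 on this scale, and those of the other members ran from 0.44 to 0.85. In simulated counts this test recovered 37% of 2-fold changes. With these 5 libraries a 2-fold change was not detectable for Tcf7 and Lef1 and could be missed for any of the 9.

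The spread within the groups was wider than the difference between them. For 6 of the 9 members the same 2 libraries stood together at 1 end. That order was picked after the values were seen, and the share of all genes with it was not counted. Control replicate 2 and disease replicate 3 had the 2 highest levels of Tcf7, Lef1, Bach2 and Ccr7, and the 2 lowest of Prdm1 and Id2. Tbx21, lowest in disease replicate 4, and Eomes, lowest in control replicate 2 and not the second lowest in disease replicate 3, did not follow that order. Id3 was also highest in those 2 libraries, but its widest gap was that of disease replicate 4, which was low in every lineage. Within CD8 barcodes alone, the 6 members also had control replicate 2 and disease replicate 3 together at the same end. Tcf7 stood there at 12.8, 144, 128, 19.8 and 22.1 CPM and Lef1 at 17.6, 239, 111, 24.1 and 29.7 CPM. These 2 libraries had the fewest CD3 barcodes, 1.85% and 2.66% of their kept barcodes against 7.41% to 28.0% in the others. Their CD8 shares of CD3 barcodes were the lowest, 43.1% and 53.3% against 70.6% to 79.3%. Without control replicate 2, Tcf7 changed to 1.63, Lef1 to 1.5, Bach2 to 1.05 and Ccr7 to 0.59 on the log2 scale. Without control replicate 1, the same genes stood at -1.59, -2.24, -1.56 and -1.55, and Id2 at 1.91 and Prdm1 at 2.12. Without disease replicate 4, the fold change of Id3 was 0.36. None of these values passed, those without a control replicate compare 1 control library with 3 disease libraries, and the part of T cell number and CD8 share in them was not tested.

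**Figure D3:**
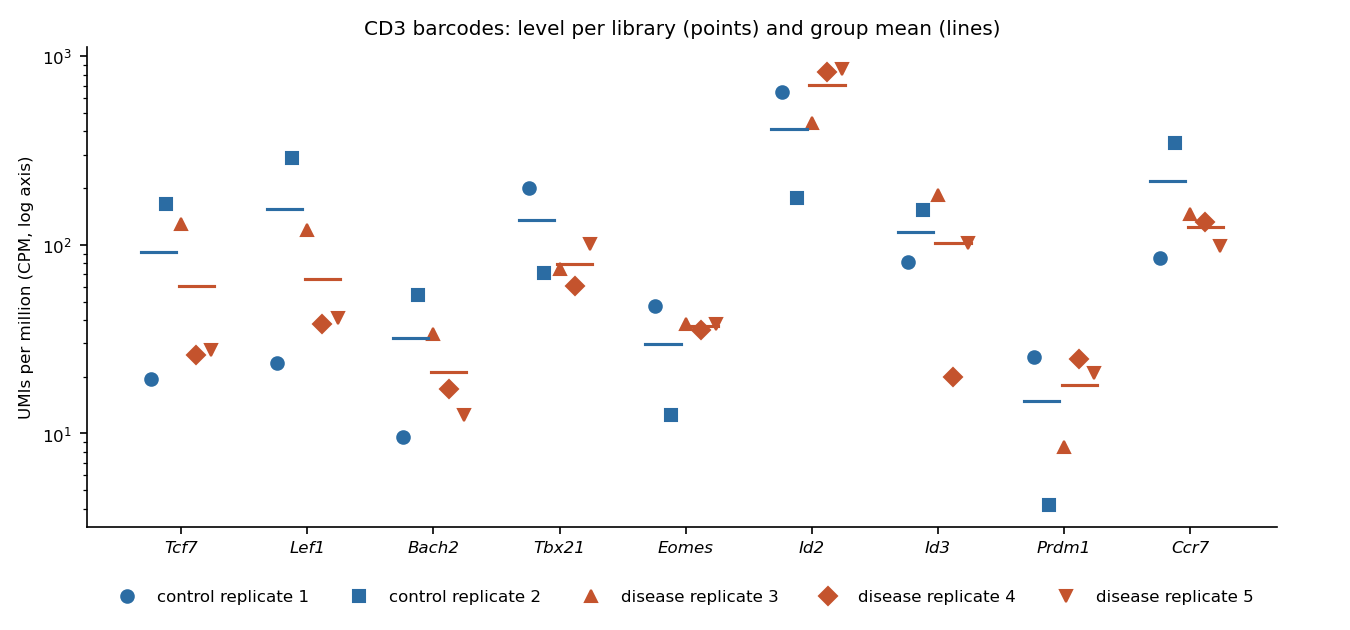
Level of each gene in CD3 barcodes in CPM on a log axis, 1 point per library (blue control, orange disease) with a line at each group mean. The groups overlap for all 9 genes, and control replicates 1 and 2 lie at opposite ends for Tcf7 (19.4 and 165 CPM) and Lef1 (23.5 and 288 CPM).

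Within CD3 barcodes, the CD8 set (a Cd8a or Cd8b1 UMI and no Cd4) held 466, 44, 81, 2057 and 506 barcodes and the CD4 set (a Cd4 UMI and neither CD8 gene) 48, 22, 24, 170 and 40. These sets are part of the CD3 barcodes and share their libraries. In CD8 barcodes 0 of 9 members passed between genotypes, where 3.81% of genes did. The lowest adjusted p was that of Ccr7 (-1.07, SE 0.61, adjusted p 0.537) and no member had an unadjusted p under 0.05. In CD4 barcodes Bach2, Eomes and Prdm1 had too few UMIs, and 0 of the other 6 passed, where 3.47% of genes did. Id2 in CD4 barcodes stood at 313, 114, 308, 561 and 586 CPM, with overlapping groups and a difference of 1.04 (SE 0.46, adjusted p 0.346). Lef1 in CD4 barcodes stood at 89.5, 572, 135, 146 and 148 CPM. Its difference of -1.24 (SE 0.71, adjusted p 0.5) became -2.12 with an adjusted p of 0.0384 without control replicate 1, the only alternative under which a member passed between genotypes within a single set. That fit has 1 control library of 22 CD4 barcodes, assumed to vary like the disease libraries.

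In B barcodes 4 members could be tested between genotypes and 0 passed, where 9.1% of genes did. Bach2 differed by 0.24 (SE 0.26, adjusted p 0.638), Ccr7 by 0.29 (SE 0.15, adjusted p 0.278), Id2 by 1.11 (SE 0.49, adjusted p 0.226) and Id3 by -0.05 (SE 0.69, adjusted p 0.976). Whether the genotype difference itself differed between CD3 and B barcodes was tested with a gate by group term. In simulated counts this test recovered 5% of 2-fold and 65% of 4-fold differences, so a lack of calls does not show that the sets are alike. In edgeR 0 of 7632 genes passed (percent called 0), with 267 at an unadjusted p under 0.05. Of the members, Tcf7 (p 0.0425) and Lef1 (-2.65, SE 0.92, p 0.0147) were among these 267, but Tcf7 rests on 4 UMIs in B barcodes and Lef1 on 3 to 9 a library, and both were below the filter when B barcodes were tested alone. The difference for Ccr7 was -0.88 (SE 0.59, adjusted p 1), and -2.21 with an adjusted p of 0.0204 without control replicate 1, where the control arm is 1 library assumed to vary like the others. Between CD3 and NK barcodes 0 of 5531 genes passed the same test (percent called 0), with 178 at an unadjusted p under 0.05, among them Lef1 (p 0.00343, adjusted p 0.906) on 9 NK UMIs. That fit took all 5 libraries, among them disease replicates 3 and 5 with 9 and 19 NK barcodes. DESeq2 called 0 genes in both.

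NK barcodes were too few in disease replicates 3 and 5 for a test between genotypes within that set. Tbx21 was higher in both control libraries (489 and 564 CPM) than in the 3 disease libraries (266, 149 and 231 CPM). The 5531 genes compared here passed the filter on low counts in the fit of CD3 and NK barcodes, where CD3 counts could carry a gene. Ccr7 is among them without any NK UMI, so that its groups could not separate. Among the 8 members in that set of genes, Tbx21 was the only 1 whose groups did not overlap, against 26.8% of those genes. Because the set holds genes with too few NK UMIs to separate, this tally is no result about the members. The groups of Prdm1, which has 6 NK UMIs and is outside that set, did not overlap either.

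In the comparison of CD8 with CD4 barcodes within a library, Eomes and Id2 were higher and Lef1 and Ccr7 lower in CD8 barcodes, 4 of 9 members, where 4.49% of genes passed, 2.23% higher and 2.25% lower. Lef1 stood at 17.6, 239, 111, 24.1 and 29.7 CPM in CD8 and at 89.5, 572, 135, 146 and 148 CPM in CD4 barcodes. It was lower in CD8 barcodes in 5 of 5 libraries, by -1.78 (SE 0.30, adjusted p 0.00204).

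Ccr7 stood at 93.7, 305, 143, 82.6 and 55.1 CPM in CD8 and at 144, 572, 173, 460 and 772 CPM in CD4 barcodes. The gap was widest in disease replicates 4 and 5. The difference of -1.66 (SE 0.43, adjusted p 0.0425) did not pass without disease replicate 4 (-1.40, adjusted p 0.256), without disease replicate 5 (-1.12, adjusted p 0.154) or in DESeq2 (adjusted p 0.0637). Without barcodes holding markers of other lineages, B markers included, which leaves 3 libraries, it was -1.88 (adjusted p 6.24e-15). B barcodes are rich in Ccr7, and Cd79a, a B cell receptor gene, stood at 91.5 CPM in the CD4 barcodes of control replicate 2 and at 0 to 6.44 CPM in the other 4 libraries. The part of B cell transcripts in the Ccr7 levels of CD4 barcodes was not tested.

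Eomes was nearly confined to CD8 barcodes, at 58.9, 24.7, 65.4, 42.1 and 42.1 CPM against 0, 0, 9.63, 4.34 and 12.9 CPM in CD4 barcodes, where 6 UMIs were counted in all. Every CD8 value was above every CD4 value, with a difference of 3.39 (SE 0.50, adjusted p 0.000762). Id2 was at 714, 165, 453, 896 and 909 CPM in CD8 and 313, 114, 308, 561 and 586 CPM in CD4 barcodes, higher in CD8 in 5 of 5 libraries by 0.82 (SE 0.16, adjusted p 0.00814).

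Tcf7 differed by -1.02 (SE 0.31, adjusted p 0.0956), Bach2 by -1.16 (SE 0.36, adjusted p 0.0996) and Tbx21 by 0.87 (SE 0.27, adjusted p 0.0941), and none of these passed. Tcf7 and Bach2 were lower in CD8 barcodes in 5 of 5 libraries, while Tbx21 was higher in 3 of 5. At a mitochondrial limit of 25% Bach2 (adjusted p 0.0321) and Tbx21 (adjusted p 0.0387) passed, and without the filter on low counts Tcf7 (-0.86, adjusted p 0.0339) and Tbx21 (adjusted p 0.00431). When barcodes with 2 or more UMIs of other lineages' markers were left out, which leaves 3 libraries, all 3 did, at -1.69, -1.61 and 1.44. Without disease replicate 3, Tcf7 (-1.27, adjusted p 0.0462) and Tbx21 (1.01, adjusted p 0.0446) passed. Id3 differed by -0.21 (SE 0.28, adjusted p 0.849) and Prdm1 by 0.41 (SE 0.56, adjusted p 0.858). Foxp3, the regulator of regulatory T cells, was found in 10, 2, 2, 47 and 15 CD3 barcodes, of which 1, 0, 1, 1 and 0 also held a Tcf7 UMI.

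Cycling CD3 barcodes, which held 2 or more UMIs of the division genes Mki67, Top2a, Birc5, Cdk1 and Ccnb2, numbered 52 in control replicate 1 and 201 and 52 in disease replicates 4 and 5, and the other 2 libraries held fewer than 20. In these 3 libraries Tcf7, Lef1, Bach2, Id3 and Ccr7 fell in cycling barcodes, 5 of 9 members, where 19.8% of genes passed, 11.3% higher and 8.55% lower. Tcf7 stood at 11.2, 10.0 and 1.79 CPM in cycling against 21.0, 28.8 and 33.0 CPM in the other CD3 barcodes. The cycling value was the lower in 3 of 3 libraries, with a difference of -1.72 (SE 0.36, adjusted p 0.00527).

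Lef1 showed the largest difference of the 9, at 4.80, 10.6 and 10.7 CPM in cycling and 27.1, 42.3 and 47.0 CPM in other CD3 barcodes (-2.12, SE 0.24, adjusted p 7.21e-05). Bach2 differed by -1.13 (SE 0.34, adjusted p 0.0364), Id3 by -1.08 (SE 0.29, adjusted p 0.0205) and Ccr7 by -0.83 (SE 0.25, adjusted p 0.0356), each in 3 of 3 libraries. Calls other than that of Lef1 depended on single libraries: without control replicate 1 Bach2 (adjusted p 0.108), Id3 (0.0909) and Ccr7 (0.132) did not pass, without disease replicate 4 Tcf7 (0.087), Bach2 (0.114) and Id3 (0.186), and without disease replicate 5 Bach2 (0.133) and Ccr7 (0.153). Bach2 also did not pass in DESeq2 (adjusted p 0.237) or without barcodes holding markers of other lineages (0.11), nor Id3 with at least 3 CD3 UMIs required (0.203).

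The effector regulators did not pass in either direction. Tbx21 differed by -0.18 (SE 0.11, adjusted p 0.307), Eomes by 0.36 (SE 0.18, adjusted p 0.194), Id2 by 0.28 (SE 0.09, adjusted p 0.0565) and Prdm1 by -0.11 (SE 0.23, adjusted p 0.795). Id2 stood at 798, 1018 and 925 CPM in cycling and at 613, 790 and 845 CPM in the other CD3 barcodes, higher in 3 of 3 libraries. The Id2 difference passed without disease replicate 5 (0.43, adjusted p 0.0413) and with doublets kept (0.31, adjusted p 0.0252), and was 0.0095 (adjusted p 0.954) without barcodes holding markers of other lineages.

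CD3 barcodes with at least 1 UMI of Tcf7 numbered 51, 46, 49, 225 and 63. They were 7.73% of CD3 barcodes in control replicate 1 (95% Wilson interval 5.93 to 10.0), 45.1% in control replicate 2 (35.8 to 54.8), 32.2% in disease replicate 3 (25.3 to 40.0), 8.43% in disease replicate 4 (7.43 to 9.54) and 9.87% in disease replicate 5 (7.79 to 12.4), the intervals covering counting error only. With every barcode thinned to 1000 UMIs, the shares were 1.53, 14.7, 9.87, 3.14 and 3.30%, in the same order of libraries. In endothelial barcodes, which should lack the gene, the thinned share was at most 0.0803%, and in fibroblast barcodes at most 0.184%.

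Setting these barcodes against the other CD3 barcodes of the same library, Lef1, Bach2 and Ccr7 rose and Id2 and Prdm1 fell, 5 of the 8 members other than Tcf7, which defined the sets. In this comparison 7.8% of 5695 genes passed, 4.21% higher and 3.58% lower. Lef1 stood at 121, 334, 275, 224 and 189 CPM with and at 13.7, 241, 42.3, 19.3 and 24.0 CPM without a Tcf7 UMI. It was higher with Tcf7 in 5 of 5 libraries, by 2.87 (SE 0.41, adjusted p 0.00368), and least so in control replicate 2, where barcodes without a Tcf7 UMI were already high.

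Ccr7 stood at 284, 371, 305, 524 and 407 CPM with and at 64.9, 326, 65.6, 92.5 and 63.3 CPM without a Tcf7 UMI (2.25, SE 0.33, adjusted p 0.00451). As for Lef1, control replicate 2 showed the smallest gap, and the others were at least 4-fold apart. Bach2 stood at 25.3, 57.7, 50.8, 46.3 and 34.9 CPM with and 7.97, 50.7, 25.4, 14.2 and 9.99 CPM without (1.63, SE 0.29, adjusted p 0.00765). The difference of Bach2 did not pass without disease replicate 4 (1.41, adjusted p 0.0734).

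Id2 was lower with Tcf7 in 5 of 5 libraries, at 374, 115, 140, 361 and 320 CPM against 670, 241, 590, 868 and 920 CPM without (-1.09, SE 0.14, adjusted p 0.00247). Prdm1 stood at 5.62, 4.12, 0, 6.99 and 2.91 CPM with and at 27.6, 4.23, 12.7, 26.5 and 23.0 CPM without (-1.91, SE 0.41, adjusted p 0.0188). In control replicate 2 the 2 values of Prdm1 were nearly equal, each resting on 1 UMI, and the call was lost without disease replicate 5 (-1.78, adjusted p 0.0548).

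Tbx21 was lower with Tcf7 in 5 of 5 libraries, at 138, 0, 8.47, 29.7 and 40.7 CPM against 208, 144, 108, 63.8 and 108 CPM, but the difference of -1.27 (SE 0.41, adjusted p 0.0958) did not pass. It passed in DESeq2 (-1.82, adjusted p 0.034), with at least 3 CD3 UMIs required (-1.3, adjusted p 0.0454), with doublets kept (-1.33, adjusted p 0.049), without the filter on low counts (-1.44, adjusted p 1.21e-08) and without barcodes holding markers of other lineages (-1.14, adjusted p 0.0402). Eomes differed by -0.96 (SE 0.32, adjusted p 0.115), lower in 5 of 5 libraries, and passed without disease replicate 4 (-1.58, adjusted p 0.0451) and without the filter on low counts (-1.09, adjusted p 0.0123). Id3 differed by 0.19 (SE 0.23, adjusted p 0.732) and was higher with Tcf7 in 3 of 5 libraries.

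The 2 sets differed in other ways too. Barcodes with a Tcf7 UMI had median depths of 5171, 4650, 4194, 4293 and 4282 UMIs, against 4960, 4182.5, 3668, 3855.5 and 4366 without. CD8 barcodes were 51.0, 39.1, 51.0, 56.4 and 65.1% of those with Tcf7 and 72.2, 46.4, 54.4, 79.0 and 80.9% of those without. Among CD8 barcodes alone, Lef1 (3.97), Ccr7 (3.12) and Id2 (-1.27) passed, while Bach2 (1.33, adjusted p 0.109) and Prdm1 (-1.56, adjusted p 0.064) did not.

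**Figure D4:**
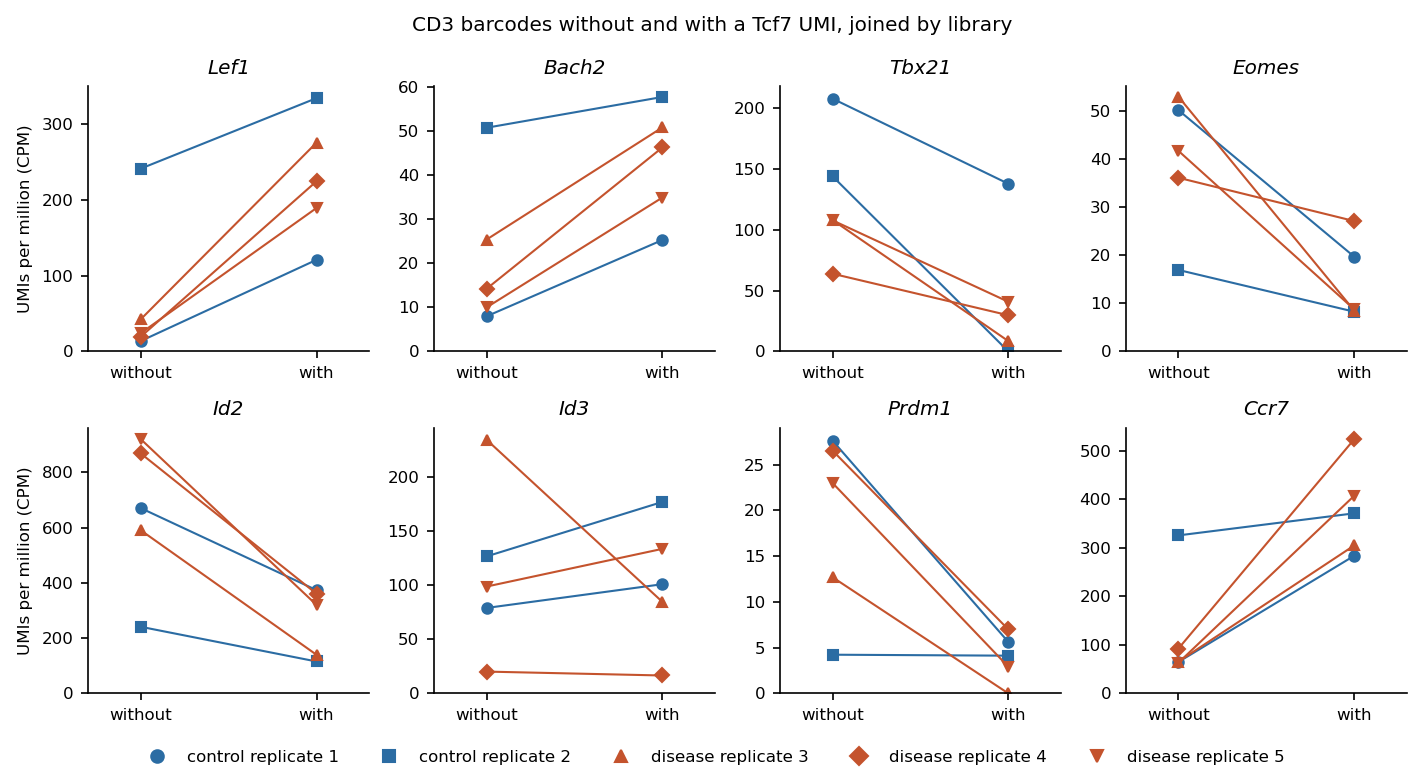
CPM of 8 genes in CD3 barcodes without (left) and with (right) a Tcf7 UMI, the 2 points of each library joined by a line. Lines rise in all 5 libraries for Lef1, Bach2 and Ccr7 and fall in all 5 for Id2, Tbx21 and Eomes, with the flattest lines for Lef1 and Ccr7 in control replicate 2.

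**Figure D5:**
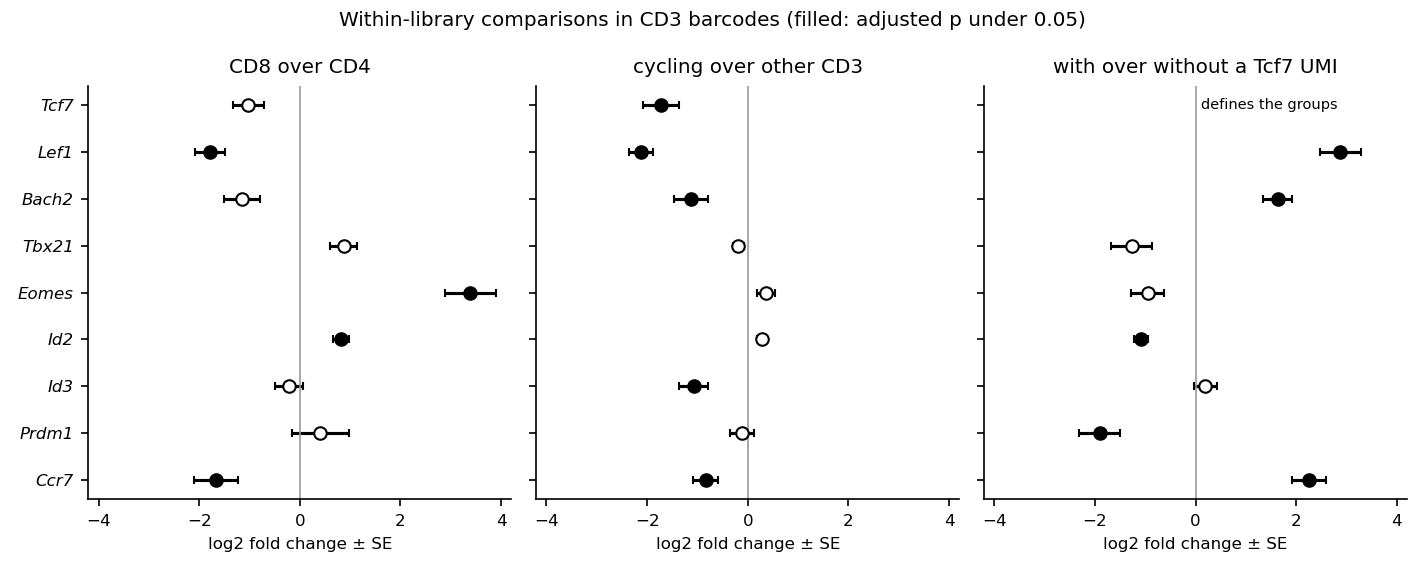
Log2 fold change and its SE for each gene in 3 within-library comparisons of CD3 barcodes, with filled points for an adjusted p under 0.05. Lef1 and Ccr7 are lower in CD8 than in CD4 and in cycling than in other barcodes, and higher with a Tcf7 UMI; Id2 is 0.82 higher in CD8 barcodes and differs by -1.09 with a Tcf7 UMI.

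Genes that work with these regulators were followed as 3 lists: 18 genes of the memory programme, 24 of the effector programme and 20 partner or opposing factors. With against without a Tcf7 UMI, 11 of 17 memory genes rose and 2 fell, with a median of 1.17 where that of all genes was -0.01 and 4.21% of all genes rose and 3.58% fell. Il7r, the receptor for interleukin-7, rose by 2.56 (adjusted p 0.00331) and Foxp1, a factor of T cell quiescence, by 1.17 (adjusted p 0.00474). Il2rb (-1.26) and Cd27 (-0.83), receptors that are also found on effector cells, fell, the call of Cd27 being lost without control replicate 1 (adjusted p 0.0522), disease replicate 4 (0.0734) or disease replicate 5 (0.0517). Of 21 effector genes 0 rose and 15 fell, with a median of -1.35, among them the cytotoxic granule genes Prf1 (-2.62) and Nkg7 (-1.44) and the chemokine receptor Cxcr6 (-1.94), whose adjusted p-values were 0.000915, 0.000467 and 0.000915. Among 16 partner factors 3 fell and 0 rose, including Runx3 (-1.09), a factor of CD8 lineage cells.

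Among genes other than the 9 members, the 5 largest rises with Tcf7 that met the rule for naming included Nsg2 (3.06), Satb1 (2.62), Il7r and Dusp10 (2.04), and the 5 largest falls were Gzma (-3.09), Prf1, the chemokine genes Ccl3 (-2.13) and Ccl5 (-1.96), and Cxcr6. Satb1, a chromatin organiser, stood at 67.4, 235, 199, 162 and 183 CPM with and at 10.2, 190, 71.9, 16.6 and 16.0 CPM without. Dusp10, a phosphatase of stress kinases, stood at 317, 375, 368, 357 and 294 CPM with and 60.9, 203, 102, 105 and 77.3 CPM without. Gzma, a granzyme, stood at 39.3, 0, 55.1, 70.7 and 5.82 CPM with and 617, 8.46, 235, 521 and 350 CPM without. All 5 libraries moved the same way for each.

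In CD8 against CD4 barcodes 12 of 22 effector genes rose and 1 fell, where 2.23% of all genes rose and 2.25% fell, with a median of 1.11 where that of all genes was 0.04, and 3 of 17 memory genes rose and 5 fell, with a median of -0.65. Gzmb, a granzyme, was higher in CD8 barcodes by 4.67 (adjusted p 1.68e-06), and S1pr1, which lets T cells leave tissues, lower by -1.65 (adjusted p 0.000775). Among 17 partner factors Runx3 rose (0.96, adjusted p 0.0148) while Runx1 (-1.16, adjusted p 0.0116) and Foxp3 (-3.41, adjusted p 0.0241) fell. The call of Runx3 was lost without control replicate 1 (adjusted p 0.0771), disease replicate 4 (0.0902) or disease replicate 5 (0.0815), and that of Runx1 without disease replicate 4 (0.115). In cycling against other CD3 barcodes 10 of 17 memory genes fell and 0 rose (median -0.70, all genes -0.05), led by Igfbp4 (-3.03), Il7r (-1.93) and Satb1 (-2.03), while 4 of 23 effector genes rose and 5 fell (median -0.05). Of all genes 11.3% rose and 8.55% fell there.

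Between lineages, 21 of 22 effector genes rose in CD3 against B barcodes (median 5.14, all genes -0.01) and 18 of 19 in NK against B barcodes (median 4.47, all genes 0.03), with 0 lower in either. Of all genes 20.8% were higher and 21.4% lower in CD3 against B barcodes, and 14.7% and 14.1% in NK against B barcodes. The memory list split, with 8 higher and 8 lower of 17 in CD3 against B barcodes: Cd27 (6.72) and Il2rb (7.23) were higher and Foxp1 (-2.39) lower. In CD3 against NK barcodes 5 of 14 memory genes rose and 0 fell (median 1.12, all genes 0.13), while 4 of 21 effector genes rose, such as Lag3 (3.22), and 4 fell, such as Klrg1 (-4.22). Of all genes 3.45% rose and 1.87% fell there.

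Between genotypes 1 of 17 memory genes and 0 of 23 effector genes passed in CD3 barcodes, with medians of -0.49 and 0.76 where that of all genes was 0.04. With 4.87% of all genes called, 1 of 17 is near the background. That gene was Igfbp4, encoding a binding protein of insulin-like growth factors, at 127, 455, 35.3, 36.7 and 36.2 CPM. Both control values were above all disease values, and Igfbp4 fell by 3.0 on the log2 scale (SE 0.52, adjusted p 0.0236). It also passed in CD8 (-3.32, adjusted p 0.0378) and CD4 barcodes (-3.70, adjusted p 0.0305), sets that share their libraries. In CD3 barcodes the adjusted p was 0.0691, 0.0713 and 0.144 without disease replicates 3, 4 and 5, with folds of -3.06, -3.01 and -3.01 on the log2 scale. Without control replicate 2, the library with the highest level, Igfbp4 still passed but at -1.79, against 1 control library. It was also 0.0717 (-3.60) without barcodes holding markers of other lineages and 0.0566 (-3.12) with at least 3 CD3 UMIs required. In CD8 and CD4 barcodes the call of Igfbp4 was lost without any 1 of the disease replicates (adjusted p 0.0548 to 0.205), with the GC trend removed (0.0613 and 0.0573) and without control replicate 2, where the values were -1.73 (adjusted p 0.0679) and -2.32 (adjusted p 0.0536).

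The share of CD3 barcodes with a UMI, after thinning to 1000 UMIs, did not order the libraries as the sums did for every member. The lowest share of Tbx21, 4.90%, was in control replicate 2, while its lowest sum was in disease replicate 4. The share kept the order of the sums for Lef1, but its lowest library differed for Ccr7 and its highest for Id2. For Lef1 it was 3.06% (1.99 to 4.68), 25.5% (18.0 to 34.7), 6.58% (3.61 to 11.7), 3.53% (2.88 to 4.31) and 3.61% (2.42 to 5.36), against at most 0.117% in endothelial and 0.0614% in fibroblast barcodes. For Ccr7 it was 3.67, 26.5, 13.8, 5.46 and 3.45%, against at most 0.184% in those 2 lineages. For Id2 it was 38.4, 12.7, 30.9, 44.4 and 44.0%, lowest in the library with the highest share of Tcf7 and Lef1. Before thinning the shares of Lef1 were 6.67, 57.8, 28.3, 8.65 and 11.3%. Thinning left out 6 CD3 barcodes of control replicate 1, 88 of disease replicate 4 and 1 of disease replicate 5. Median depths were 3899 to 4963.5 UMIs in CD3, 2182 to 3111 in endothelial and 5454 to 6266 in fibroblast barcodes.

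Likeness of pattern was measured as Pearson's r of log2(CPM + 1) over 41 sums of library and lineage, across 14419 genes. These points share their libraries, and r is given as a description. The genes most like Tcf7 were Cd96 (0.926) and Ccr8 (0.908), those most like Lef1 were Faah (0.905) and Plcxd2 (0.853), and those most like Bach2 were Pgap1 (0.772) and Sbk1 (0.766). Tbx21 was nearest to Gm14029 (0.936) and Sla2 (0.907), Eomes to Baiap3 (0.957) and Prf1 (0.950), and Id2 to Tubb6 (0.760) and Srgap3 (0.752). Id3 was nearest to Tmem47 and Cavin3 (both 0.881), Prdm1 to Cab39 (0.728) and Ccr7 to H2-Oa (0.943). Among the members themselves r was 0.847 for Tbx21 and Eomes, 0.831 for Tcf7 and Eomes, 0.822 for Tcf7 and Lef1, 0.592 for Bach2 and Ccr7, and -0.537 for Tbx21 and Id3.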

How the data were processed

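Single-cell RNA was measured in 5 libraries, 2 control and 3 disease. Each deposited matrix gives whole UMI counts for 31053 genes, and the file headers name Cell Ranger 3.1.0. The submitters' processing notes name Cell Ranger 3, Seurat 3 and the builds GRCh38 and mm10, and the annotation is not given in the sources used here. The members, lists and tests were chosen with earlier results of these data known.

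Barcodes under 500 UMIs, under 200 genes or above 10% mitochondrial UMIs were dropped. Scrublet (scanpy 1.11.5, expected rate 0.8% per 1000 cells) removed 1.22% to 4.18% of the rest as doublets. In control replicate 2 its own threshold marked 0.0716%, so the median threshold of the other libraries was used there. Each lineage other than CD3 needed no CD3 UMI and at least 2 UMIs of its own markers, which had to make up at least 2 of every 3 lineage marker UMIs, and NK barcodes also a UMI of Ncr1 or Klrb1c.

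Raw counts were summed per library and set, without scaling, and CPM are shares of these sums. Fits used edgeR 4.0.16 in R 4.3.3 (TMM, filterByExpr, quasi-likelihood F test) over the libraries with at least 20 barcodes in each set, except that the test of the difference between CD3 and NK barcodes took all 5, and the SE was computed as the size of the log2 fold change divided by the root of F. Comparisons within libraries had the library as a block, because both sums come from the same library. Alternatives included DESeq2 1.42.0, other filters and each library left out. Scripts were tested on simulated data. The genes named are the 9 members, up to 3 rises and 3 falls of each list by adjusted p, and, for the Tcf7 comparison, members, receptor and immunoglobulin segments and unnamed gene models aside, the 5 largest rises and falls that passed with mean log2 CPM of 5 or more and the same direction in every library. A gene that met this rule is not reported here. UMI totals of CD3 sums ran from 478988 to 12680935 per library, so the precision is lowest in control replicate 2. Wilson intervals are at 95%, and folds against 0 UMIs use a floor of 3 UMIs over the group.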

Additional observations from a re-analysis of the deposited data

Results flagged for a closer look

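Of 26 log2 ratios compared across 5 libraries, 4 had a library whose gap to the nearest other exceeded 0.71 of the whole range, and by chance about 1 group in 20 does so. Of the 4, 3 concern control replicate 2. For Eomes in CD3 against B barcodes its log2 ratio was 3.76, against 5.18 or more in the others, but B barcodes held no Eomes UMI in any library, so that this ratio reflects only the CD3 level and the pseudocount of 1 CPM. For Lef1 in CD3 barcodes with against without a Tcf7 UMI it was 0.47, against 2.67 or more, and for Ccr7 in the same comparison 0.19, against 2.11 or more. That library held 102 CD3 barcodes, and its barcodes without a Tcf7 UMI had the highest levels of both genes. For Id2 in CD8 against CD4 barcodes control replicate 1 had the highest log2 ratio, 1.19, against 0.52 to 0.67 in the others. The direction was the same in all 5 libraries in each of these 4 cases.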

How the results depend on the processing

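No call of a member reversed under the alternatives run, though 77 fold changes of members that passed under neither setting changed sign. Between genotypes no member passed under any alternative in CD3, CD8 or B barcodes, and Lef1 in CD4 barcodes passed in 1. Without the filter on low counts, the genes called numbered 966 in CD3, 834 in CD8, 184 in CD4 and 1014 in B barcodes between genotypes, 439 in CD3 against NK (4 members), 481 in CD8 against CD4, 674 with against without a Tcf7 UMI, and 20 and 3 for the differences of CD3 from B and NK. With the trend on base composition removed, the genotype counts were 262, 189, 25 and 280. DESeq2 called 295 in B barcodes between genotypes, 169 in CD3 against NK, 622 in NK against B and 1118 in cycling barcodes. Leaving out each library gave 1 to 377 genes between genotypes in CD3, 3 to 276 in CD8, 0 to 83 in CD4 (0 to 1 members) and 60 to 483 in B barcodes; 131 to 466 in CD3 against NK, 789 to 1146 in NK against B, 100 to 286 in CD8 against CD4, 871 to 1793 in cycling barcodes (2 to 4 members), 186 to 460 with Tcf7, and 0 to 12 (0 to 1 members) and 0 to 17 for the 2 differences. The lowest genotype counts came without disease replicate 5 in CD3, CD8 and CD4 barcodes and without control replicate 2 in B barcodes; in CD3 against NK barcodes leaving out any of the 3 libraries moved the count by over 1.5 times, in CD8 against CD4 leaving out any of control replicate 1, disease replicate 4 or disease replicate 5, in cycling barcodes control replicate 1 or disease replicate 4, with Tcf7 disease replicate 4 or 5, and in NK against B disease replicate 4. A mitochondrial limit of 25% gave 498 genes and 4 members in CD3 against NK, and including libraries with fewer than 20 barcodes, added after seeing the data, 565 and 6. Without barcodes holding other lineages' markers, CD8 against CD4 gave 492 genes and 7 members and the difference of CD3 from NK 5 genes; with doublets kept, the difference of CD3 from B gave 1; CD8 barcodes alone gave 3 members with Tcf7. The cause was not tested.

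Without the library as a replicate block, the calls numbered 1553 in CD3 against B, 49 (0 members) in CD3 against NK, 490 in NK against B, 19 (0 members) in CD8 against CD4, 346 (1 member) in cycling barcodes and 2 (0 members) with Tcf7. No paired analysis was possible between genotypes because the groups share no replicate number. NK barcodes alone were not tested between genotypes. Thinning to 500 or 2000 UMIs moved 60 of 90 shares beyond their interval. Few CD3 barcodes in control replicate 2 limit the depth of each contrast that uses it.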
